A study of Mus musculus with 4 samples.

Results

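The interferon gamma (IFNγ) induced GTPases examined here were 10 genes of the small intestine (SI), found in the deposited count table by their gene names: Gbp2, Gbp3, Gbp6, Gbp7 and Gbp8 of the guanylate-binding protein (GBP) family, and Irgm1, Irgm2, Igtp, Iigp1 and Tgtp2 of the immunity-related GTPase (IRG) family. All 10 were among the 56748 genes of the table, and all 10 were among the 16094 genes with enough counts to be tested. RNA-seq gave 2 libraries from the SI of p53+/+ (WT) mice and 2 from p53-/- mice at day 1 after total-body irradiation (TBI) of 12 Gy from a Cs-137 source. Both genotypes were irradiated, and unirradiated mice were not analysed here. The study's methods give mice of 8 to 12 weeks, matched for age and gender, although the Xist counts given below do not bear out the matching for gender. In p53-/- mice the gene is missing from epithelium, stroma and immune cells alike. In the GENCODE M21 annotation Gbp2, Gbp3 and Gbp7 lie on chromosome 3, Gbp6 and Gbp8 on chromosome 5, Irgm1, Irgm2, Igtp and Tgtp2 on chromosome 11 and Iigp1 on chromosome 18.

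Both GTPase families defend cells from within. IFNγ, released by T cells, NK cells and other lymphocytes, binds the IFNGR1 and IFNGR2 receptor chains and acts through the kinases JAK1 and JAK2 on promoters that hold the GAS element. IRF1, itself induced by IFNγ, binds the ISRE element. The induced GBPs and IRGs assemble on the membranes of vacuoles that hold intracellular bacteria or parasites and help to break them. Among the IRGs, Irgm1, Irgm2 and Igtp (also named Irgm3) are regulators that sit on the cell's own membranes, and Iigp1 and Tgtp2 are effectors that load onto the vacuole. In the intestine these genes are induced both in epithelial cells and in leukocytes.

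Libraries are named by the numbers in the table, 7 and 8 for p53+/+ and 9 and 10 for p53-/-, and held between 15005479 and 22173164 counts. Levels are CPM, the counts of a gene relative to the TMM-scaled size of its library. Trp53, the deleted gene, was at 57.7 and 47.1 CPM in p53+/+ SI against 19.8 and 22.5 CPM in p53-/- SI, and which exons those reads came from was not analysed here. Phlda3, a p53 target that checks the genotype, was at 87.3 and 91.9 CPM in p53+/+ SI against 1.93 and 1.54 CPM in p53-/- SI. Library 10 stood apart, with 588 counts of Xist against 0 to 4 in the other libraries, 4.59% of its counts on the ribosomal RNA gene Rn18s-rs5 against 0.296% to 0.863%, and the B cell genes described later. Xist is a transcript of female cells, so its counts go against the gender matching that the methods give. No fit included sex. Library 7 stood apart from library 8 in the markers of stroma and muscle. Values of the members without these libraries are given after the account of each member. In whole tissue, fewer cells of a type and less RNA per cell cannot be told apart.

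The promoters are shown first because the pathway acts on them through the GAS and ISRE elements. RefSeq (GRCm38.p6) held a promoter for 7 of the 10 members, and the 250 bases upstream of each gene start were searched for GAS (TTCNNNGAA, the same on both strands) and the ISRE core (GAAANNGAAA, or TTTCNNTTTC where it lies on the other strand). The 120 bases before each gene start are printed 5′ to 3′ on the gene's strand because they hold every match found in these 7 members. Capitals mark the matches, which run together where they overlap. The positions are chr3:142620543-142620662 (plus strand) for Gbp2, chr3:142559924-142560043 (plus) for Gbp3, chr3:142530216-142530335 (plus) for Gbp7, chr11:58199436-58199555 (plus) for Igtp, chr11:48871421-48871540 (minus) for Irgm1, chr11:58214857-58214976 (plus) for Irgm2 and chr11:49064213-49064332 (minus) for Tgtp2.
Gbp2: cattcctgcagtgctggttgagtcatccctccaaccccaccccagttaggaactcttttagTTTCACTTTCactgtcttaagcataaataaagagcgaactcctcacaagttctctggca
Gbp3: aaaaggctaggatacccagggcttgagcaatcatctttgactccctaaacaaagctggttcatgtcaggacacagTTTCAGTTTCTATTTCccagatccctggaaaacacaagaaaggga
Gbp7: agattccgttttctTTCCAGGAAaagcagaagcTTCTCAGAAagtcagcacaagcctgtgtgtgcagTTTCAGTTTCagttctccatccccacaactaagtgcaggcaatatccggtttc
Igtp: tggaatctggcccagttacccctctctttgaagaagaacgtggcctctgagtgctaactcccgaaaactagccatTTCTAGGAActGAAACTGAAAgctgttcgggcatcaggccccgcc
Irgm1: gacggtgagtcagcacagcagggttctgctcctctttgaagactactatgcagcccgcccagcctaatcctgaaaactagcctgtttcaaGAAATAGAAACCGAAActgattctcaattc
Irgm2: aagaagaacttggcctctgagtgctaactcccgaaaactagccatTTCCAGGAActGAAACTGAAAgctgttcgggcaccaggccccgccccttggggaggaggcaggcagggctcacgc
Tgtp2: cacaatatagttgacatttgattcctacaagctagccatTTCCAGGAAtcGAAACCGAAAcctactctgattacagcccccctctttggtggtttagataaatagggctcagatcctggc

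The ISRE core was found in 7 of these 7 promoters, against 2.98% of the 32851 RefSeq promoters searched over the same length. GAS was found in 4 of the 7, namely Gbp7, Igtp, Irgm2 and Tgtp2, against 7.02% of all promoters. Both were found in the same 4, against 0.332% of all promoters. Gbp3 had 2 RefSeq promoters, of which the promoter with matches was printed and counted, and the other held none. The shares of all promoters count every promoter, so members and background were not counted alike. A match is a stretch of letters and not a site shown to be bound. The members are paralogs, so their promoters are not independent of each other. The Igtp, Irgm2 and Tgtp2 promoters shared an arrangement in which the ISRE core began 11 bases after the start of GAS, a spacing noticed after the sequences were read.

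In the p53-/- SI, every one of the 10 GTPases lay above the p53+/+ SI, and for each gene both p53-/- libraries were higher than both p53+/+ libraries. The log2 fold change ranged from 1.63 for Gbp3 to 3.44 for Igtp, with a median of 2.47 over the 10 members against -0.01 over all genes tested. Such a separation upward was seen in 26.4% of all genes tested, and downward in 24.4%. Tgtp2, with 6 counts in library 7, needed the p53-/- libraries, where it was higher, to be tested. Its direction is therefore no support, though the counts over 10 members include it. With at least 10 counts in every library, 9 members were tested and all 9 had a positive log2 fold change. With edgeR's quasi-likelihood test and Benjamini-Hochberg adjustment over all genes, 1 member passed the threshold of 0.05 as higher, Irgm1, where 0.298% of all genes did, 0.193% passed as lower and 0.491% in either direction. The unadjusted p was under 0.05 in 10 of 10 members, all higher, against 10% of all genes higher and 7.92% lower. With DESeq2, 9 of 10 members passed as higher, all but Gbp3, against 5.05% of all genes higher and 4.12% lower. With edgeR's likelihood ratio test 8 members passed, against 5.18% of all genes. These tests rest on 2 libraries per genotype, and the labels do not say that the libraries came from separate animals, so that the p-values measure the spread between these libraries. With library 10 removed, no gene of the table passed the quasi-likelihood test.

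**Figure D1:**
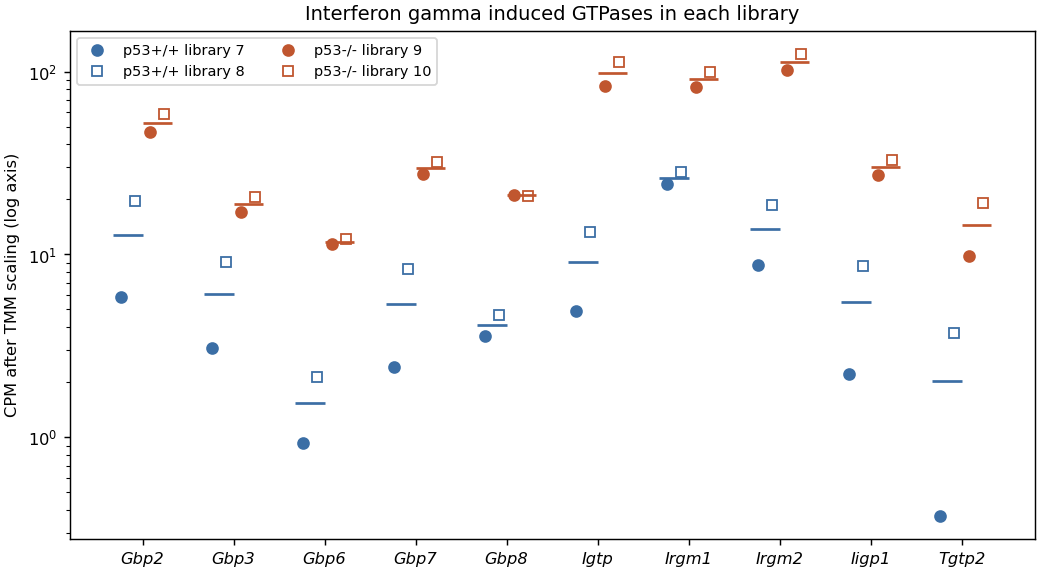
Level of each of the 10 GTPases in each library, as CPM after TMM scaling on a log axis, with p53+/+ libraries in blue, p53-/- libraries in orange and short lines at the mean of each genotype (n = 2). For every gene the p53-/- points lie above the p53+/+ points, and library 7 is the lowest point of each gene.

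Among the regulatory IRGs, Irgm1, which limits intracellular bacteria and has been tied to autophagy and mitochondria, was at 24.3 and 28.4 CPM in p53+/+ libraries 7 and 8 and at 82.5 and 100 CPM in p53-/- libraries 9 and 10. It rose 3.47-fold, and the fitted log2 difference was 1.79 with an SE of 0.184 (edgeR quasi-likelihood adjusted p 0.0410). Its p53+/+ libraries were the closest of any member, with the higher at 1.17 times the lower. Irgm1 passed the threshold in 8 of 13 alternative fits, and its log2 difference lay between 1.69 and 1.92 with any 1 library removed.

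Igtp and Irgm2, regulators that restrain the effector IRGs on the cell's own membranes, had the largest log2 differences of the 10 members with all 4 libraries. Without library 8, Tgtp2 exceeded both, and Iigp1 (3.74) exceeded Irgm2 (3.68). Without library 9, Tgtp2 exceeded Irgm2. Igtp was at 4.89 and 13.2 CPM in p53+/+ SI against 83.6 and 112 CPM in p53-/- SI. The fitted log2 difference was 3.44 with an SE of 0.488 (edgeR quasi-likelihood adjusted p 0.0596). Irgm2 was at 8.79 and 18.8 CPM in p53+/+ SI against 102 and 124 CPM in p53-/- SI. This gave a log2 fold change of 3.04 with an SE of 0.385 (edgeR quasi-likelihood adjusted p 0.0541). The lower p53-/- library was 6.32 times the higher p53+/+ library for Igtp and 5.44 times for Irgm2, while the p53+/+ libraries themselves differed by 2.71 and 2.13 times. The gene models of the pair overlap on chromosome 11, over 8.01% of the exonic bases of Igtp and 4.39% of those of Irgm2 in the GENCODE M21 annotation, so a small share of their reads could have been assigned to either or to neither.

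The effector IRGs were at lower counts. Iigp1 was at 2.23 and 8.69 CPM in p53+/+ SI against 27.2 and 32.7 CPM in p53-/- SI, and the fitted log2 difference was 2.46 with an SE of 0.625 (edgeR quasi-likelihood adjusted p 0.148). Tgtp2 was at 0.371 and 3.70 CPM in p53+/+ SI, or 6 and 57 counts, and at 9.82 and 19.1 CPM in p53-/- SI. On the log2 scale the difference was 2.83 with an SE of 0.991 (edgeR quasi-likelihood adjusted p 0.233), and it was 1.97 without library 7 and 5.25 without library 8. The genotypes did not overlap for either gene, but the p53+/+ libraries of Tgtp2 differed by 9.96 times, more than those of any other member. Tgtp2 is also the least certain count, because 76.8% of the stretches of 100 bases in its transcripts occur in Tgtp1 or Gm12185 as well. Tgtp1, its near copy, was at 0.309 and 1.10 CPM in p53+/+ SI against 5.30 and 5.52 CPM in p53-/- SI, and the fitted log2 difference was 2.93 (edgeR quasi-likelihood adjusted p 0.133).

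Of the GBPs, Gbp8 had the tightest libraries. It was at 3.59 and 4.67 CPM in p53+/+ SI against 21.08 and 20.99 CPM in p53-/- SI. The fitted log2 difference was 2.35 (standard error 0.287), and its adjusted p of 0.0510 from edgeR's quasi-likelihood test was just above the threshold. Gbp6 was at 0.929 and 2.14 CPM in p53+/+ SI against 11.4 and 12.2 CPM in p53-/- SI, and the fitted log2 difference was 2.94 with an SE of 0.504 (edgeR quasi-likelihood adjusted p 0.0865). The lower p53-/- library was 5.30 times the higher p53+/+ library for Gbp6 and 4.49 times for Gbp8. Gbp6 and Gbp8 lie with Gbp4, Gbp9 and Gbp10 in the chromosome 5 cluster of the annotation, and 64.5% of the stretches of 100 bases of Gbp6 transcripts are shared with other genes of that cluster, against 4.39% for Gbp8.

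The members of the chromosome 3 cluster, Gbp2, Gbp3 and Gbp7, had wider p53+/+ libraries than Gbp6 and Gbp8. Gbp2, which is recruited to parasite and bacterial vacuoles, was at 5.88 and 19.7 CPM in p53+/+ SI against 46.6 and 58.5 CPM in p53-/- SI. This gave a log2 fold change of 2.04 with an SE of 0.553 (edgeR quasi-likelihood adjusted p 0.163). Gbp7, which has been linked to the assembly of the phagocyte oxidase, was at 2.41 and 8.30 CPM in p53+/+ SI against 27.6 and 32.2 CPM in p53-/- SI, and Gbp3 was at 3.09 and 9.08 CPM against 17.0 and 20.7 CPM. Their log2 fold changes were 2.48 with an SE of 0.579 (edgeR quasi-likelihood adjusted p 0.134) and 1.63 with an SE of 0.534 (edgeR quasi-likelihood adjusted p 0.211). For Gbp3 the lower p53-/- library was only 1.87 times the higher p53+/+ library, the narrowest gap of the 10 members.

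**Figure D2:**
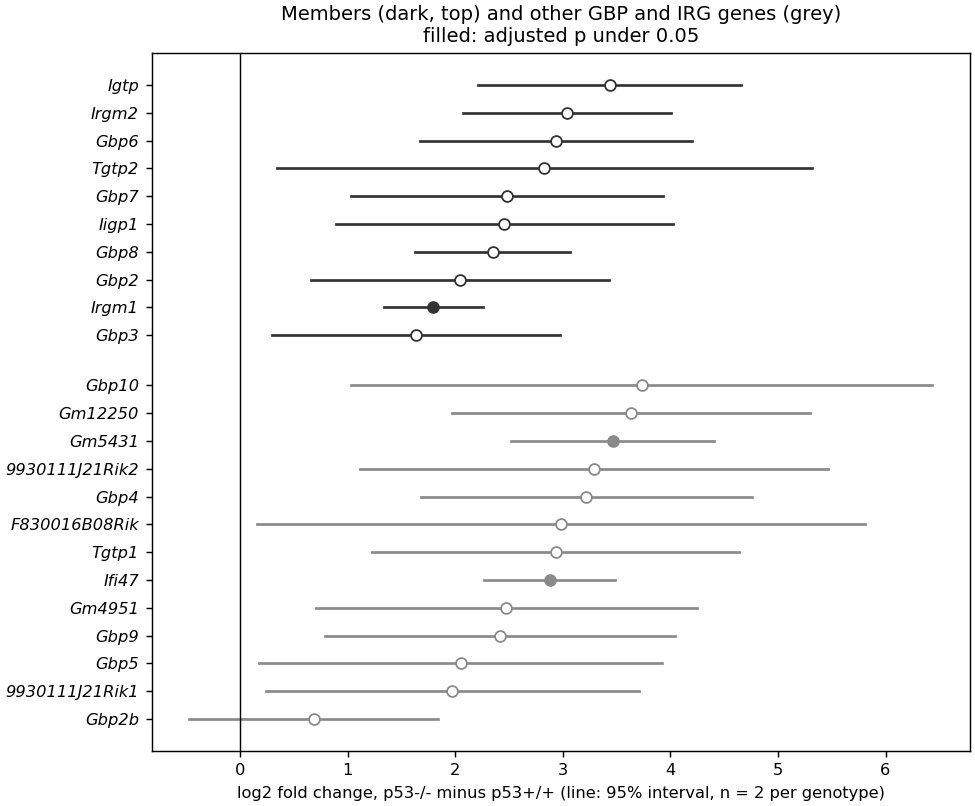
Log2 fold change of each gene, p53-/- minus p53+/+, with its 95% interval from edgeR's quasi-likelihood fit (n = 2 per genotype), for the 10 members (dark) and the 13 other GBP and IRG genes tested (grey), with filled points past the adjusted threshold. Among the members the filled point is Irgm1, and the interval of Gbp2b in the lower group spans 0.

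The members differed more between the p53+/+ libraries than between the p53-/- libraries. Library 8 was above library 7 in 10 of 10 members, with a median ratio of 2.82 and a range from 1.17 to 9.96, against a median ratio of 0.953 over the 15898 genes tested that had counts in every library. Library 10 was above library 9 in 9 of 10 members, with a median ratio of 1.22 and a highest ratio of 1.94. The median log2 fold change of the members was 1.91 without library 7, 3.63 without library 8, 2.58 without library 9 and 2.38 without library 10. Each member stayed positive under every one of these 4 fits. Without library 7 and without library 8, the log2 fold change was 1.42 and 3.15 for Gbp2, 1.06 and 2.60 for Gbp3, 1.85 and 3.62 for Gbp7 and 2.46 and 3.65 for Gbp6. It was 1.79 and 3.74 for Iigp1, 2.89 and 4.32 for Igtp and 2.60 and 3.68 for Irgm2. Gbp8, at 2.18 and 2.54, and Irgm1 moved least. Counts of members past the threshold are not set out for each of these fits, because each leaves 1 library in a genotype. Such counts depended on which library was left out.

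Levels of different genes were compared per length, as FPKM (CPM per kilobase of gene) computed from the counts, the exonic lengths of GENCODE M21 and the scaled library sizes. In the p53+/+ SI the mean level was 5.09 FPKM for Gbp2, 4.53 for Irgm1, 4.48 for Igtp and 3.73 for Irgm2, then 1.86 for Gbp3, 1.1997 for Gbp8, 0.955 for Gbp7, 0.938 for Iigp1, 0.693 for Tgtp2 and 0.258 for Gbp6. The libraries of each gene in this order overlapped with those of the next. In the p53-/- SI the order was led by Igtp at 48.5 FPKM, followed by Irgm2 at 30.7, Gbp2 at 20.9 and Irgm1 at 15.7, and the libraries of these 4 genes did not overlap with each other. The next 5, from Gbp8 at 6.11 to Tgtp2 at 4.91 FPKM, overlapped with their neighbours, and Gbp6 was again the lowest at 1.98 FPKM. Irgm1 thus stood above Igtp by the mean of the p53+/+ libraries and below it in both p53-/- libraries, without a test of the order. Reads of Gbp6 and Tgtp2 may be split or lost, since 64.5% and 76.8% of their stretches of 100 bases occur in other genes. In addition, 29.0% of the exonic bases of Gbp6 overlap Gm43302 and 11.35% of those of Gbp7 overlap Gm43802. What this does to the order, or to sums that hold these genes, was not tested.

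By role, the 3 regulatory IRGs together were at 12.7 ± 5.33 FPKM in the p53+/+ SI and 94.8 ± 16.5 FPKM in the p53-/- SI (SD, n = 2). The effectors Iigp1 and Tgtp2 together were at 1.63 ± 1.59 and 10.1 ± 2.89 FPKM (SD, n = 2), and the 5 member GBPs at 9.37 ± 6.30 and 40.1 ± 4.799 FPKM (SD, n = 2). The summed level of regulators over that of effectors was 17.6 in library 7, 6.003 in library 8, 10.4 in library 9 and 8.80 in library 10. The p53-/- ratios lay between the p53+/+ ratios, so the balance of regulators to effectors overlapped between genotypes.

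The rest of both families was examined from a list of 17 names, of which 15 were in the table and 13 had enough counts to be tested. All 13 had both p53-/- libraries above both p53+/+ libraries, against 26.4% of all genes tested. Gbp10, F830016B08Rik, Gm4951, Tgtp1, 9930111J21Rik1 and 9930111J21Rik2 had at most 6 counts in library 7 and needed the p53-/- libraries to be tested. Their direction is therefore no support. The median log2 fold change of the 13 was 2.93. With edgeR's quasi-likelihood test, 2 passed the threshold as higher, against 0.298% of all genes. Ifi47, an IRG of the chromosome 11 cluster, was at 13.0 and 16.6 CPM in p53+/+ SI against 91.5 and 126 CPM in p53-/- SI, and the fitted log2 difference was 2.88 (edgeR quasi-likelihood adjusted p 0.0279). Gm5431 was at 2.48 and 4.996 CPM against 43.1 and 39.3 CPM, and the fitted log2 difference was 3.46 (edgeR quasi-likelihood adjusted p 0.0433). About 20.6% of the stretches of 100 bases of Gm5431 transcripts are shared with its neighbours. The smallest difference of the list was that of Gbp2b, the mouse GBP1, at 3.22 and 6.75 CPM in p53+/+ SI against 7.28 and 8.70 CPM in p53-/- SI. On the log2 scale the difference was 0.68, with a 95% interval from -0.48 to 1.84. Gbp2b lies between Gbp3 and Gbp2 in the chromosome 3 cluster. The 2 untested genes, Gbp11 and Irgc1, had no counts in p53+/+ SI against 3 or 4 counts in each p53-/- library.

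Other interferon-induced GTPases outside both families comprised the very large GTPases Gvin1, Gvin2 and Gvin3 and the dynamin-like antiviral proteins Mx1 and Mx2. All 5 lay higher in both p53-/- libraries, with a median log2 fold change of 2.29, and 0 passed the threshold with edgeR's quasi-likelihood test (4 had an unadjusted p under 0.05, and 4 passed with DESeq2). Gvin3 was at 0.495 and 0.195 CPM in p53+/+ SI against 5.61 and 19.5 CPM in p53-/- SI. With 8 and 3 counts in p53+/+ SI, Gvin3 could be tested only through the p53-/- libraries. Gvin1 and Gvin2, with 9 and 6 counts in library 7, also needed those libraries to be tested. The direction of these genes is therefore no support. Mx1 was at 3.09 and 3.18 CPM against 12.4 and 12.4 CPM.

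Upstream of the GTPases, the ligand was scarce and the receptors were abundant. Ifng had 0 and 2 counts in p53+/+ SI against 8 and 13 counts in p53-/- SI, too few to be tested. The ratio of its summed scaled counts was 7.72, with a 95% exact interval from 1.89 to 67.9 that covers counting error only. Il12b, the gene of the IL12-p40 subunit that drives IFNγ production, had 0 and 1 counts in p53+/+ SI against 11 and 14 in p53-/- SI. Tbx21, the transcription factor of IFNγ-producing lymphocytes, was at 0.124 and 0.324 CPM against 1.97 and 2.93 CPM, and the fitted log2 difference was 3.42 (edgeR quasi-likelihood adjusted p 0.110). Of the 5 tested inducers of IFNγ, 4 had a positive log2 fold change and 0 passed the edgeR quasi-likelihood threshold. With edgeR's unadjusted p under 0.05, 3 were higher, against 10% of all genes. With DESeq2, 1 passed as higher, against 5.05% of all genes. Tbx21, Stat4 and Il12rb1 had 2, 3 and 7 counts in library 7 and needed the p53-/- libraries, where they were higher, to be tested. Their positive sign is therefore no support. Il18 and Il18r1, with at least 10 counts in every library, had log2 fold changes of 0.14 and -0.32. Type I and III interferon genes of the list had at most 1 count in any library, where 3 counts, the limit that a count of 0 allows, would be 0.131 to 0.195 CPM.

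The receptor gene Ifngr1 was at 341 and 317 CPM in p53+/+ SI against 219 and 198 CPM in p53-/- SI, the opposite order to the GTPases. The fitted log2 difference was -0.66 (edgeR quasi-likelihood adjusted p 0.171). Ifngr2, the other receptor chain, was at 353 and 259 CPM against 215 and 212 CPM. Of the 12 tested genes of the ligand, receptor and signalling list, 9 had a positive log2 fold change and 0 passed the threshold. With edgeR's unadjusted p under 0.05, 7 were higher and 1 lower, against 10% and 7.92% of all genes. With DESeq2, 5 passed as higher and 1 as lower, against 5.05% and 4.12% of all genes. Socs1, the feedback inhibitor of the receptor, had the largest log2 fold change of the list at 2.08, from 6.19 and 14.1 CPM to 33.3 and 52.8 CPM (edgeR quasi-likelihood adjusted p 0.119). Irf1 was at 135 and 65.5 CPM against 252 and 265 CPM. In contrast to the GTPases, Irf1 was higher in library 7 than in library 8.

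**Figure D3:**
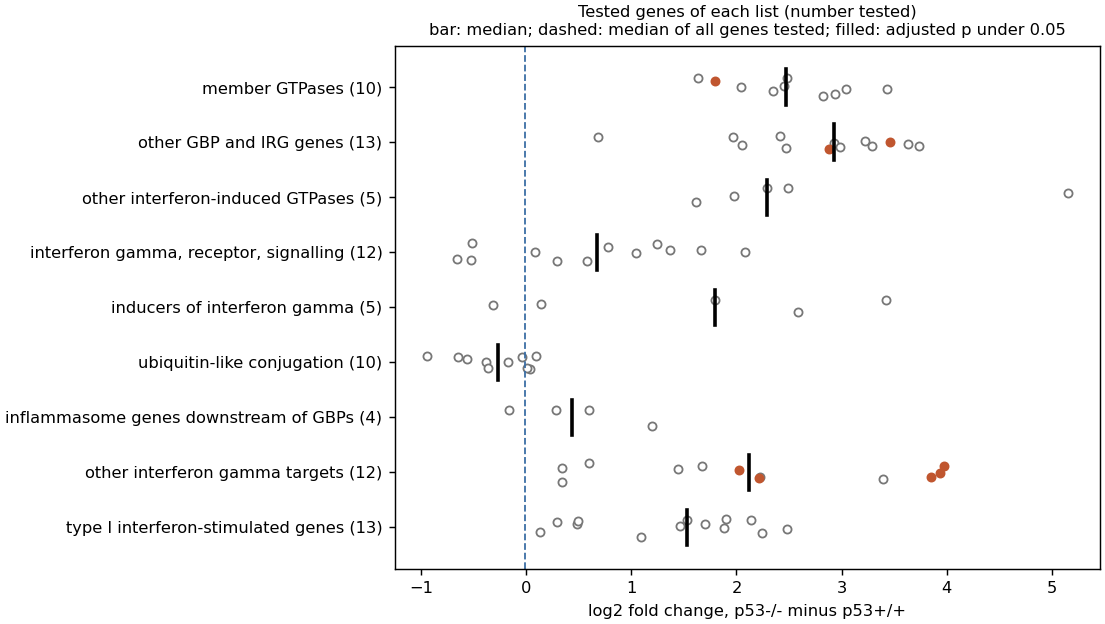
Log2 fold change, p53-/- minus p53+/+, of each tested gene of the lists named in the text, with a bar at each list's median, a dashed line at the median of all genes tested and filled points past the adjusted threshold. The member GTPases have a median of 2.47 and the other GBP and IRG genes of 2.93, and the ubiquitin-like conjugation genes lie around and below 0.

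Other genes that IFNγ is known to induce were also higher in part. Of 12 tested, 5 passed the threshold as higher and 0 as lower, against 0.298% and 0.193% of all genes tested. The median log2 fold change was 2.12. The 5 were the chemokine gene Cxcl9, the MHC transactivators Nlrc5 and Ciita, and the immunoproteasome subunits Psmb8 and Psmb9, with log2 fold changes of 3.94, 3.98, 3.85, 2.21 and 2.02. Ciita, the master regulator of MHC class II genes, was at 3.84 and 7.46 CPM in p53+/+ SI against 65.3 and 97.5 CPM in p53-/- SI. Of 13 type I interferon-stimulated genes, which share the ISRE but are induced mainly by antiviral interferons, all 13 lay higher in both p53-/- libraries. Of all genes tested, 26.4% did. The median log2 fold change of these 13 was 1.52, and 0 passed the threshold. With edgeR's unadjusted p under 0.05, 10 were higher, against 10% of all genes. With DESeq2, 7 passed as higher, against 5.05% of all genes. Isg15 was at 7.36 and 12.2 CPM in p53+/+ SI against 33.4 and 38.6 CPM in p53-/- SI. The difference between the medians of these lists was not tested.

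The machinery that places the GTPases on membranes was examined next. The ubiquitin-like conjugation genes, whose products mark the vacuole membrane for IRGs and GBPs, had a median log2 fold change of -0.27 over 10 tested genes, and 3 of 10 were positive. No gene of this list passed the threshold. With edgeR's unadjusted p under 0.05, 0 were higher and 2 lower, against 10% and 7.92% of all genes. With DESeq2, 1 passed as lower, against 4.12% of all genes. The lowest was Map1lc3a, at 51.9 and 67.7 CPM in p53+/+ SI against 30.9 and 31.3 CPM in p53-/- SI (log2 fold change -0.94, edgeR quasi-likelihood adjusted p 0.105). Of the 4 inflammasome genes that act downstream of GBPs, Casp4, which encodes the caspase that senses cytosolic lipopolysaccharide, was at 33.8 and 37.8 CPM against 88.8 and 75.1 CPM, and the fitted log2 difference was 1.19 (edgeR quasi-likelihood adjusted p 0.0592). None of the 4 passed the edgeR quasi-likelihood threshold. With edgeR's unadjusted p under 0.05, 2 were higher, against 10% of all genes. With DESeq2, 1 passed as higher, against 5.05% of all genes. Gsdmd, the pore protein that this caspase cleaves, had a log2 fold change of -0.16.

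Read beside the promoters printed above, the members with both motifs had larger log2 fold changes than those with the ISRE core alone. The 4 with both were Gbp7 at 2.48, Tgtp2 at 2.83, Irgm2 at 3.04 and Igtp at 3.44. The 3 with the ISRE core and no GAS were Gbp3 at 1.63, Irgm1 at 1.79 and Gbp2 at 2.04. Among the other family genes, Gm12250, Tgtp1 and Gbp5 had both motifs, with 3.63, 2.93 and 2.05, and Gbp2b had the ISRE core alone, with 0.68. The 4 family genes with neither motif in this window, Ifi47, Gm5431, 9930111J21Rik1 and 9930111J21Rik2, lay between 1.97 and 3.46, so they did not follow this order. Over the family it rests on Gbp5 at 2.05 against Gbp2 at 2.04, and it turned without library 7 (1.32 against 1.42) and without library 10 (1.89 against 1.90). The pattern was noticed after the values were seen and was not tested.

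**Figure D4:**
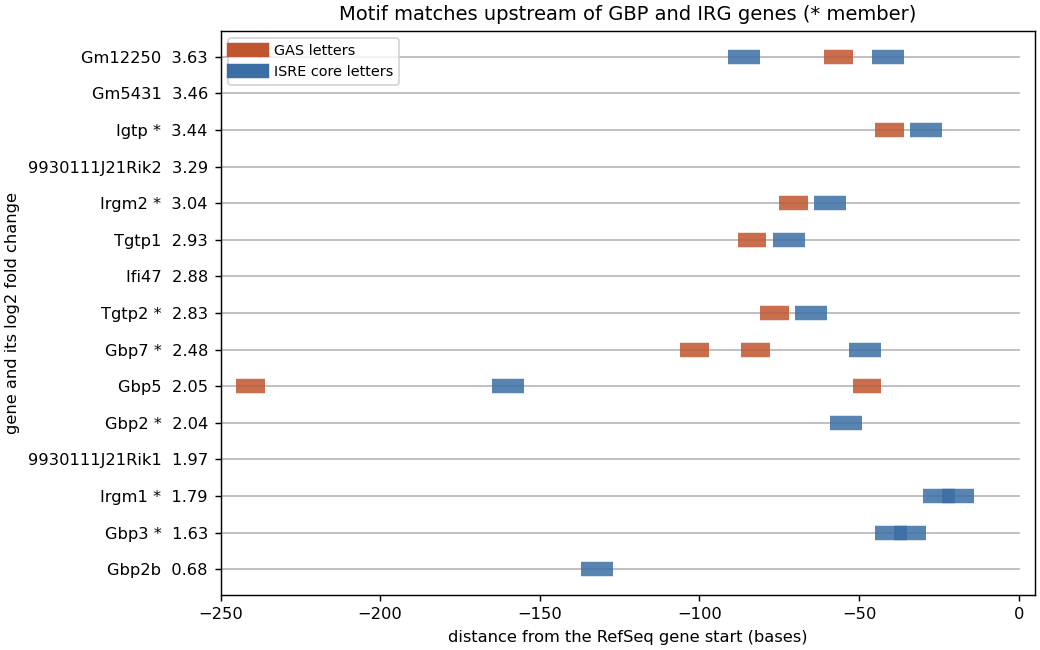
Position of each GAS match (orange) and ISRE core match (blue) in the 250 bases upstream of the RefSeq gene start, for the 15 GBP and IRG genes with a RefSeq promoter and a tested fold change, ordered by their log2 fold change, p53-/- minus p53+/+. The genes with both kinds of match have log2 fold changes from 2.05 to 3.63, those with the ISRE core alone from 0.68 to 2.04, and 4 genes have no match.

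Over all tested genes with a promoter, the motif classes had medians near 0. The median log2 fold change was 0.17 over the 52 genes with both motifs, 0.14 over the 336 with the ISRE core alone and -0.01 over all 11570 genes. The arrangement with the ISRE core beginning 11 bases after the start of GAS occurred in 5 of the 32851 promoters. These were Igtp, Irgm2, Tgtp1, Tgtp2 and Gm12185, all on chromosome 11 and several of them near copies of each other, and all 5 had a positive log2 fold change with a median of 3.04. Gm12185 had a log2 fold change of 4.53 (edgeR quasi-likelihood adjusted p 0.0578). The arrangement was read from Igtp, Irgm2 and Tgtp2, members chosen with earlier results known. Tgtp1 and Tgtp2 also needed the p53-/- libraries to be tested. The shared positive sign is therefore no support for a role of the arrangement.

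The summed level of the members was set beside marker genes of the cells that the SI pieces could hold. The 10 members summed to 56.4 and 117 CPM in p53+/+ libraries 7 and 8 and to 429 and 533 CPM in p53-/- libraries 9 and 10. The 9 T cell markers summed to 6.62 and 14.8 CPM and to 63.7 and 118 CPM. All 9 were higher in both p53-/- libraries, against 26.4% of all genes tested. Cd8b1, Cd6, Cd5 and Cd3g had 0, 0, 2 and 8 counts in library 7 and needed the p53-/- libraries to be tested. The direction of these T cell markers is therefore no support. The 5 NK and innate lymphoid markers summed to 0.619 and 1.04 CPM and to 4.87 and 6.32 CPM. In the p53+/+ libraries, Cd8b1 of the T cell markers, Ncr1 and Klre1 of the innate lymphoid markers, and Pax5 and Fcer2a among the B cell markers had no counts. The part of these cells in the levels of the GTPases was not tested.

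The 7 B cell markers summed to 1.11 and 1.82 CPM in p53+/+ SI and to 22.6 and 465 CPM in p53-/- SI. Library 10 was therefore 20.6 times library 9 in B cell markers, while the 10 members there differed by at most 1.94 times. The 7 macrophage markers summed to 57.6 and 164 CPM and to 205 and 283 CPM, and the 6 dendritic cell markers to 2.91 and 13.8 CPM and to 26.1 and 42.4 CPM. In both lists library 7 was below library 8, as it was for the members. Fibroblast markers (63.7 and 381 CPM in p53+/+ SI, 279 and 295 CPM in p53-/- SI) and smooth muscle markers (393 and 3663 CPM, 853 and 582 CPM) also differed between libraries 7 and 8, by 5.98 and 9.32 times, and in both lists the p53-/- libraries lay between them. The 4 red blood cell genes summed to 0.557 and 1.43 CPM in p53+/+ SI against 2.15 and 5.87 CPM in p53-/- SI. What these marker differences contribute to the levels of the GTPases was not tested.

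Markers of the epithelium were summed in the same way. The 8 epithelial markers, among them Epcam and Vil1, summed to 23233 and 16799 CPM in p53+/+ SI against 15326 and 12820 CPM in p53-/- SI, the opposite direction to the GTPases. In 7 of 8 both p53-/- libraries were below both p53+/+ libraries, against 24.4% of all genes tested. None passed the edgeR quasi-likelihood threshold. With edgeR's unadjusted p under 0.05, 2 were lower, against 7.92% of all genes. With DESeq2, 2 passed as lower, against 4.12% of all genes. The genotypes lay close in part, as Krt8 was at 5329 CPM in p53+/+ library 8 and 5297 CPM in p53-/- library 9. Lct, a villus enzyme gene, was at 0.990 CPM or less in every library. The 6 stem and Paneth cell markers summed to 9556 and 6552 CPM against 11627 and 13581 CPM. Most of this sum was Lyz1 (5999 and 3929 CPM against 6593 and 8140 CPM) and Defa24 (3331 and 2478 CPM against 4253 and 4642 CPM). Of these markers, 5 of 6 were above in both p53-/- libraries, against 26.4% of all genes tested. None passed the edgeR quasi-likelihood threshold. With edgeR's unadjusted p under 0.05, 2 were higher, against 10% of all genes. With DESeq2, 3 passed as higher, against 5.05% of all genes. Ascl2 lay below in both, at 12.0 and 9.28 CPM in p53+/+ SI against 7.23 and 4.82 CPM in p53-/- SI. Lgr5 had a log2 fold change of 0.67. Olfm4, a crypt base gene, had the largest difference of the list, at 47.6 and 16.0 CPM in p53+/+ SI against 473 and 525 CPM in p53-/- SI. Its log2 difference was 3.97 (edgeR quasi-likelihood adjusted p 0.0587). The part of the epithelial makeup in the levels of the GTPases was not tested.

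**Figure D5:**
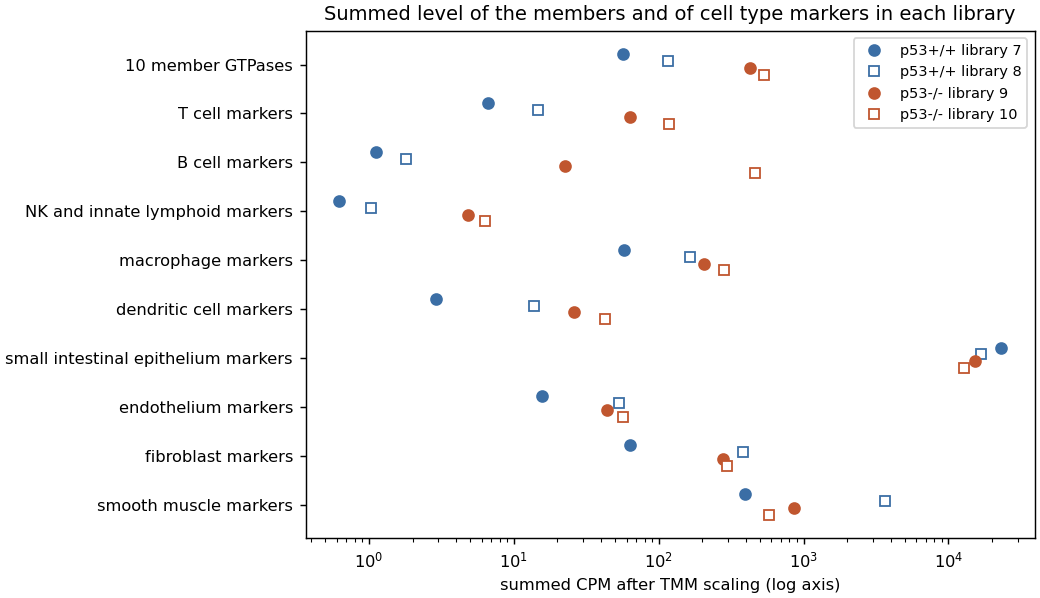
Summed CPM after TMM scaling, on a log axis, of the 10 members and of 9 lists of cell type markers in each library, with p53+/+ libraries in blue and p53-/- libraries in orange. The members and the lymphocyte, dendritic cell and macrophage markers are higher in both p53-/- libraries, the epithelial markers are lower in both, B cell markers spread by 20.6 times between libraries 9 and 10, and smooth muscle markers are highest in p53+/+ library 8.

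Genes outside the lists were ranked by how near their log2 CPM, centred over the 4 libraries, lay to the mean centred profile of the members, among the 9803 genes whose average log2 CPM reached 3. The nearest 5 were Selplg, Slfn5, H2-Eb1, Herc6 and Trim30a, at root mean square distances from 0.21 to 0.27. The members themselves lay between 0.12 for Gbp7 and 0.69 for Tgtp2. H2-Eb1, an MHC class II chain, was at 41.0 and 103 CPM in p53+/+ SI against 427 and 669 CPM in p53-/- SI. Slfn5 was at 2.91 and 11.1 CPM against 38.0 and 35.4 CPM. With 4 libraries such likeness is a description.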

How the data were processed

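RNA-seq was performed on mouse SI, with 2 p53+/+ and 2 p53-/- libraries. Raw, unnormalized read counts were deposited by the authors. The submitters' processing notes name fastp, HISAT2 2.0.5, featureCounts 1.5.0-p3 and DESeq2 1.20.0. The genome build, the strand setting and the handling of reads that match several genes are not given in the sources used here, so that reads of paralogs or overlapping genes may be split or lost. The labels name directional and non-directional libraries without saying which was made. The columns carry the genotype and a library number, not the replicate number of the labels. The libraries of a genotype were distinct, as the chi-square statistic over its degrees of freedom reached 48.0 (p53+/+) and 69.5 (p53-/-), and the study's methods call data points biological replicates.

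Counts were filtered with filterByExpr, scaled by TMM and tested two-sided with the quasi-likelihood test of edgeR 4.0.16 in R 4.3.3, with Benjamini-Hochberg adjustment over 16094 genes and a threshold of 0.05. Standard errors are the log2 fold change divided by the root of the F statistic. Alternatives included DESeq2 1.42.0 on the same genes. The test was checked on simulated data. Exonic lengths and overlaps came from GENCODE M21 (GRCm38), which holds 91.8% of the identifiers. Read length is not given, and stretches of 100 bases were used for sharing. Named genes are the 10 members, genes of the lists that passed the threshold or have a role in the pathway, and the 5 nearest profiles. The members and the lists were chosen with earlier results of these data known, and the lists were written by hand. Some genes of the lists are not reported here by name.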

Additional observations from a re-analysis of the deposited data

How the results depend on the processing

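Each of the 10 members kept a positive log2 fold change in all 129 values obtained under 13 alternative fits. The sign of Tgtp2 is no support, since it needed the p53-/- libraries to be tested in the main fit. Of the 129 values, 50 passed the threshold. Against 1 member past it, the count was 0 with upper-quartile scaling, 0 with library size only, 0 with at least 10 counts in every library, 0 at an adjusted p under 0.01, 3 after removal of immunoglobulin and T cell receptor segments, 8 with edgeR's likelihood ratio test, 9 with DESeq2, 10 with no filter on low counts, and 0 to 10 with 1 library left out. Leaving out ribosomal RNA genes, chosen after seeing the data, kept it at 1. Genes higher and lower, 48 and 31, became 29 and 20 with upper-quartile scaling, 26 and 20 with library size only, 812 and 663 with DESeq2, 833 and 462 with the likelihood ratio test, 1433 and 761 with no filter, 24 and 18 with at least 10 counts in every library, 4 and 2 at the stricter threshold, and 0 to 680 and 0 to 344 with 1 library left out. The cause was not tested.

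With 1 library left out, where the lone library is assumed to vary like the others, the list medians ran from 1.91 to 3.63 for the members, 2.30 to 3.60 for other GBP and IRG genes, 1.97 to 2.80 for other interferon-induced GTPases, 1.61 to 3.97 for inducers of IFNγ, -0.34 to -0.089 for ubiquitin-like conjugation genes, 0.35 to 0.53 for inflammasome genes, 1.83 to 2.26 for other IFNγ targets and 1.03 to 2.10 for type I interferon-stimulated genes. With at least 10 counts in every library the medians were 1.86 for other interferon-induced GTPases, -0.0044 for inducers of IFNγ, which then rest on fewer genes, and -0.19 for conjugation genes. From log2 FPKM with a pseudocount of 0.1 they were 1.52 for the GTPases outside both families and 1.44 for the inducers. With no filter, IFNγ signalling was at 0.82 and the inducers at 2.61. Conjugation genes were at -0.21 with upper-quartile scaling and -0.20 with library size only. Signs turned for genes near 0. Atg7 (-0.04) was at 0.0082 with upper-quartile scaling, 0.023 with library size only, 0.027 with at least 10 counts, and 0.0080 and 0.043 without libraries 7 and 9. Map1lc3b (0.01) was at -0.0059 with RLE and -0.0059 with DESeq2, and -0.025 and -0.016 without libraries 7 and 9. Leaving out 1 library gave Atg7 -0.093 to 0.043, Map1lc3b -0.025 to 0.076, Atg12 -0.0021 to 0.107 and Il18 -0.34 to 0.88, the lowest of the last pair without library 8. No paired analysis was possible because the columns carry library numbers and not the replicate numbers of the labels. With no filter the median was 0.15 over the 27841 genes then tested, while that of the members was 2.49. Depth limits what can be said of Ifng and of Tgtp2.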
